A study of Drosophila melanogaster with 8 samples.

Results

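The 4 control libraries of an adult female fat body RNA-seq series are described here, out of 8 libraries in all. They were chosen by genotype alone, and every gene of their count tables, 17411 in each, was kept for the description. The genotype is yolk-Gal4/w1118: the Gal4 driver is carried over the w1118 background and no hairpin transgene is present, whereas the other 4 libraries of the series carry an RNAi transgene against 9G8 and are not analysed here. The flies were females aged 1 week, and the material was cuticle dissected with the fat body still on it, so epidermis, body wall muscle, oenocytes and hemocytes could be part of each library.

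Several features limit these animals as a model of a resting wild-type fat body. The driver uses a yolk protein promoter, which works in the female adult fat body, so the controls make Gal4 in the tissue studied. No label states that the 4 libraries came from separately reared flies, so the spread between them may be partly technical. Control 1 to control 4 are the replicate numbers given in the labels.

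The insect fat body combines the roles of liver and adipose tissue. It stores triglyceride and glycogen, releases lipoproteins and transferrin into the hemolymph, makes the antimicrobial peptides of the humoral immune response under the Toll and Imd pathways, and in adult females makes yolk proteins that the ovary takes up. Poly(A)-selected RNA was sequenced, so the counts describe mainly messenger RNA, together with polyadenylated transcripts of the mitochondrial genome.

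The libraries held between 27946556 and 34750635 counts assigned to genes. Levels are CPM, the count of a gene relative to the library total, scaled by the trimmed mean of M-values (TMM) over the 4 libraries, and CPM per kb divides by the deposited exon length of the gene. A count of 3, used as the detection limit, corresponded to between 0.0845 and 0.109 CPM and covers counting error only. Control 4 lay at the extreme of several measures. It had the fewest counts, the largest scaling factor (1.21, against 0.901, 0.898 and 1.02 in controls 1, 2 and 3) and the most genes with any count (14220, against 13161, 13091 and 13401). Spearman's rho between pairs of libraries, over 5818 genes with a mean of at least 5 CPM, lay between 0.820 for controls 1 and 3 and 0.929 for controls 1 and 2. No pair of libraries was identical. The scaling decides the order of libraries where differences are small: on unscaled CPM the highest library was the same for 138 of 169 named genes and the lowest for 135. Genes are not independent replicates, so these coefficients only describe the libraries.

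A gene is called variable below when its highest library was at least 4-fold above its lowest, with the lowest set to at least 3 counts. Of the 5818 genes at a mean of 5 CPM or more, 659 (11.3%) were variable, and the count of each gene group is read against that share. The median gene had a 2.05-fold range and a coefficient of variation of 32.1%, whereas counting error alone gave a median of 3.79%. The common biological coefficient of variation estimated by edgeR over the 4 libraries was 0.455. Without control 4, 377 of 5450 genes (6.9%) were variable, and without control 3, 396 of 5794 (6.8%). Without control 2 the number was 515 of 6014 (8.6%), and without controls 3 and 4 it was 57 of 5235 (1.1%). On the same values, a range over fewer libraries can only be equal or narrower. Controls 1 and 2, left in the last case, were the most alike pair by Spearman's rho. On the values from all 4 libraries, single pairs differed at least 4-fold in 95 (controls 1 and 2) to 370 genes (controls 1 and 3).

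Few genes held most of the counts. The 10 leading genes held 18.03 ± 1.11% of the counts (SD, n = 4), and 101 genes held 50% of the mean share. Within single libraries 92, 96, 100 and 105 genes held 50% of the counts in controls 1 to 4, and 1135, 1184, 1433 and 1784 genes held 90%. Control 4 therefore spread its counts over more genes than the other libraries at both marks. At the other end, 7388 genes reached 1 CPM in every library, 9075 reached it in at least 1 library, and 1966 had no count in any control. Only 181 genes had a mean of at least 1000 CPM.

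**Figure D1:**
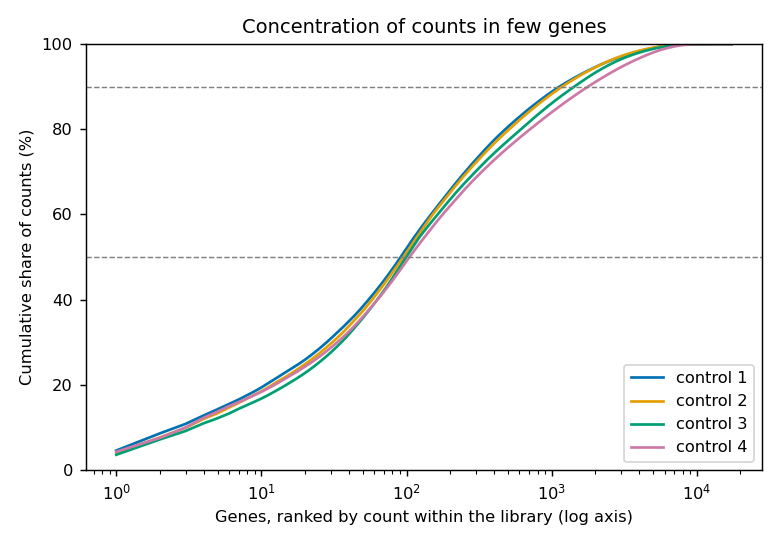
Cumulative share of counts (%) against the number of genes, ranked by count within each library, on a log axis, with 1 line for each of the 4 control libraries and dashed lines at 50% and 90%. The lines cross 50% between 92 and 105 genes and separate towards 90%, which control 1 reached at 1135 genes and control 4 at 1784.

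Genes for the respiratory chain and for the ribosome filled the top of the list. Of the 100 genes with the most counts, 8 lay on the mitochondrial genome and 50 coded for cytosolic ribosomal proteins, and the other 42 included Nplp2, Tsf1, PGRP-SC2, IM1, IM2, IM3 and Drs, described below. The 13 protein-coding mitochondrial genes held 12.5 ± 1.03% of all counts (SD, n = 4), and the 93 cytosolic ribosomal protein genes held 22.3 ± 1.65%. Cytochrome c oxidase subunit I, mt:CoI, had the highest mean level at 40090 ± 5437 CPM, ahead of Nplp2 at 38480 ± 10050 CPM. Nplp2 had the most counts in controls 1 and 3, and mt:CoI in controls 2 and 4. The level of mt:CoI in controls 1 to 4 was 44690, 44900, 35230 and 35540 CPM, so controls 1 and 2 were above controls 3 and 4. On unscaled CPM control 4 was the highest (40270, 40300, 35990 and 43000). Per unit of length, mt:CoIII led the mitochondrial genes with 28170 CPM per kb. None of the 13 mitochondrial genes was variable.

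Among ribosomal proteins RpL41, which codes for a very short peptide, was the highest per unit of length at 19040 CPM per kb, followed by RpLP2, an acidic stalk protein, at 9951 CPM per kb. RpL13A averaged 6707 ± 537.3 CPM (SD, n = 4) and sta, which codes for the small-subunit protein SA, averaged 9223 ± 1526 CPM. Only 1 of 85 ribosomal protein genes at 5 CPM or more was variable, and it is described with the germline genes. Summed over the list, ribosomal protein genes reached 230800, 241400, 241300 and 183800 CPM in controls 1 to 4, with control 4 the lowest, whereas their unscaled shares of 20.8, 21.7, 24.6 and 22.2% were lowest in control 1. Translation elongation genes held 1.04 ± 0.109% of the counts, with eIF-5A (eEF5) at 3783 ± 521.5 CPM and Tctp at 3054 ± 670 CPM, and 0 of 11 were variable.

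The 28 genes of the list of fat body secreted factors held 5.88 ± 0.680% of the counts (SD, n = 4), most of it in Nplp2. Nplp2, named as a neuropeptide-like precursor, had 51020, 40600, 35290 and 27020 CPM in controls 1 to 4. At 63090 CPM per kb it had the highest level per unit of length of any gene of at least 200 bases, and it lies on arm 3L between 13356376 and 13357223 (BDGP6 coordinates as deposited). Control 1 was its highest library and control 4 its lowest.

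Tsf1, the hemolymph iron carrier transferrin, had 9906, 15020, 10970 and 5436 CPM in controls 1 to 4, and control 4 was again the lowest. Fer1HCH, the ferritin heavy chain, averaged 3567 ± 921.3 CPM (SD, n = 4), and the light chain Fer2LCH averaged 610.6 ± 150.4 CPM. Obp99c and Obp99b, members of the odorant-binding protein family, averaged 1534 ± 251.1 and 1276 ± 237.5 CPM. CCHa2, a nutrient-dependent hormone made by the fat body, had 1032, 798.5, 662.5 and 336.5 CPM in controls 1 to 4. Of 18 genes of the secreted list at 5 CPM or more, 2 were variable: Obp99a, at 61.4 CPM in control 3 and 12.9 to 19.3 CPM elsewhere, and CG31775, at 47.95 CPM in control 2 and 1.70 to 13.2 CPM elsewhere.

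Other genes among the 20 with the most counts differed in how uniform they were. CG2444, a gene for which the files give no name beyond its number, had 16300, 4987, 6001 and 5570 CPM in controls 1 to 4, so control 1 lay far above the other libraries. CG1648 averaged 6111 ± 2820 CPM (SD, n = 4). vir-1, a gene induced by viral infection, averaged 5453 ± 1628 CPM, and its 1.99-fold range was near the 2.05-fold median of all genes tested. Both genes were highest in control 1 and lowest in control 4.

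**Figure D2:**
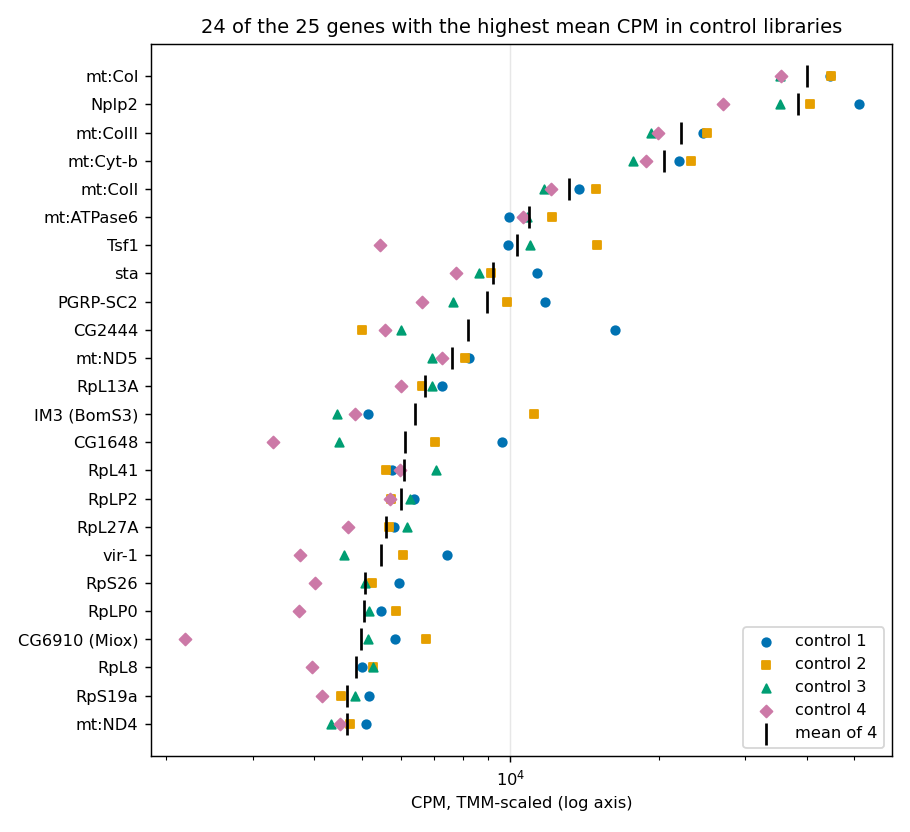
Level of 24 genes among the 25 with the highest mean CPM in each of the 4 control libraries (TMM-scaled CPM, log axis); symbols mark libraries and the bar marks the mean. Mitochondrial and ribosomal protein genes form tight clusters of points, whereas Tsf1, CG2444, IM3 (BomS3) and CG6910 (Miox) spread over more than 2.5-fold.

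Most listed markers of the fat body were detected, but so were most listed markers of some other tissues. Of 18 genes listed for fat body identity and the control of yolk synthesis, 17 had a mean of at least 5 CPM and 1 was under 1 CPM. That level was also reached by 24 of 26 body wall muscle, 12 of 14 oenocyte and 21 of 27 germline genes. It was reached by 3 of 16 nervous system genes and by 5818 of all 17411 genes. The count therefore does not single out the fat body, and the sums below describe levels only. For the fat body list, the sums are as follows. Their summed level was 9452, 10060, 6936 and 7225 CPM in controls 1 to 4, so the libraries stayed within 1.5-fold of each other. The perilipin Lsd-1, which coats lipid droplets, had 2050, 2294, 1579 and 940.2 CPM. Rfabg (apolpp), the precursor of the main hemolymph lipoprotein, had 1860, 1098, 946.2 and 1841 CPM, with controls 1 and 4 above controls 2 and 3. The hepatocyte nuclear factor Hnf4 was nearly level at 34.1 ± 5.005 CPM (SD, n = 4). The 1 variable gene of the list was tobi, a glucosidase target of insulin and glucagon-like signalling, at 19.96, 4.56, 1.35 and 21.05 CPM. Its lowest library was control 3, as for the digestive enzymes below, and a part of gut RNA in its level was not tested.

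Yolk protein transcripts were present in every library but did not lead the transcriptome. Yp3 had 2451, 3810, 2843 and 1650 CPM in controls 1 to 4 and ranked as number 75 by CPM. Yp2 had 1587, 2162, 1006 and 1504 CPM. Yp1 had 1046, 372.9, 331.5 and 914 CPM. Per unit of length Yp3 (1439 ± 480.5 CPM per kb; SD, n = 4) was the highest of the 3, followed by Yp2 at 967 CPM per kb and Yp1 at 414 CPM per kb. The 3 genes did not move together between libraries, since Yp3 and Yp2 were highest in control 2 and Yp1 was highest in control 1, or in control 4 on unscaled CPM. Yp1 overlaps the noncoding gene CR45601 on the opposite strand, and the strand setting of the counting is not given in the sources used here. All 3 lie on the X chromosome, with Yp1 (10053811 to 10055498) and Yp2 (10050951 to 10052636) beside each other and Yp3 at 13759546 to 13761547. None of the 9 genes of the list of yolk proteins and secreted lipid carriers was variable.

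Metabolic genes spread between libraries about as much as the median gene: the median range was 2.03-fold for lipid synthesis and storage, 2.27-fold for lipolysis and lipid oxidation and 2.02-fold for glycogen, trehalose and glycolysis, against 2.05-fold over all genes tested. In fatty acid synthesis and storage, 1 of 23 genes at 5 CPM or more was variable. It was Desat1, the delta-9 desaturase, with 1667, 4495, 2385 and 1114 CPM in controls 1 to 4, which just passed the 4-fold limit at 4.03-fold and did not reach it on unscaled CPM, without control 2 or without control 4. The elongase eloF averaged 1921 ± 496 CPM (SD, n = 4), the fatty acid binding protein gene fabp averaged 1286 ± 209.3 CPM, and Dbi (Acbp2), an acyl-CoA binding protein, averaged 951.7 ± 181.1 CPM. CG3523 (FASN1), the fat body fatty acid synthase, had 954.7, 411.6, 325.3 and 971.8 CPM, with controls 1 and 4 above the others. Its exon length is 8744 bases, and the median of genes longer than 6 kb was shifted in the same directions, as given below. Genes of lipolysis and lipid oxidation held a smaller share of the counts, 0.371 ± 0.0584%, led by scu at 1579 ± 414.8 CPM, and 0 of 18 were variable.

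Glycogen, trehalose and glycolysis genes together held 1.81 ± 0.231% of the counts (SD, n = 4), and 2 of 27 were variable. The glycolytic enzymes Gapdh1, Eno and Gapdh2 averaged 2611 ± 650.9, 2003 ± 469.8 and 1767 ± 407.6 CPM. Gpdh (Gpdh1), which feeds glycerol 3-phosphate into lipid synthesis, had 1639, 2248, 1639 and 705.8 CPM in controls 1 to 4, and control 4 was the lowest. The variable genes were tobi, given above, and the hexokinase Hex-C at 52.3, 110.7, 72.3 and 24.9 CPM. Control 4 was the lowest library for the list as a whole, at 12290 CPM, and also in unscaled share, at 1.49%.

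Redox and detoxification genes held 1.44 ± 0.167% of the counts (SD, n = 4). The metallothionein MtnA had 5538, 6323, 4346 and 2186 CPM in controls 1 to 4. Sod, the copper-zinc superoxide dismutase, averaged 3288 ± 854.1 CPM, and Cyt-b5 averaged 2802 ± 759 CPM. Variable members numbered 2 of 31, the glutathione transferase GstD2 and the metallothionein MtnB, both with means near 10 CPM. GstD2 stood at 29.6 CPM in control 4 and at 4.48 to 8.66 CPM elsewhere. MtnB had 18.4, 3.63, 4.82 and 12.4 CPM in controls 1 to 4.

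Genes of other cell types were measured beside those of the fat body. Oenocyte genes, which make cuticular hydrocarbons, held 0.729 ± 0.0719% of the counts (SD, n = 4), and 0 of 12 were variable. Cyp4g1, the oenocyte cytochrome P450 of hydrocarbon synthesis, had 3234, 1627, 1253 and 2750 CPM in controls 1 to 4. Fad2, a desaturase of female pheromone synthesis listed under its alternative name desatF, had 1611, 2132, 1711 and 638.3 CPM. Body wall muscle genes held 0.312 ± 0.0619% of the counts, led by the myosin light chain gene Mlc2 at 697.5 ± 275.5 CPM. Of 24 muscle genes 1 was variable, TpnC4, at 3.86 CPM in control 3 and 22.6 to 37.1 CPM elsewhere. Hemocyte genes held 0.0694 ± 0.0230% of the counts, and 1 of 13 was variable, Hml, at 47.7, 17.5, 14.7 and 63.9 CPM. In bulk tissue, fewer cells of a type and less RNA per cell cannot be told apart.

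Most listed markers of nerve and male tissue were under 1 CPM, whereas most listed markers of the tubule reached 5 CPM. Of 16 nervous system genes 10 were under 1 CPM, the neuronal gene elav had a mean of 11.7 ± 2.42 CPM (SD, n = 4), and Arc1, which codes for a capsid-like protein, averaged 183.1 ± 36.4 CPM. Of 6 Malpighian tubule genes 5 reached 5 CPM, as did 5818 of all 17411 genes, and the median over the list was 12.1 CPM. Uro, the urate oxidase of the Malpighian tubule, averaged 33.6 ± 12.04 CPM. Of 14 male accessory gland and testis genes 12 were under 1 CPM, and the exception above 5 CPM was the sperm-tail gene Mst87F at 30.2 ± 12.2 CPM. Mst87F overlaps the gene CR43300 on the opposite strand, and with the strand setting not given, the source of its reads is uncertain. Of 25 cuticle protein genes in the list, 17 were under 1 CPM and Cpr49Aa averaged 417.4 ± 86.5 CPM. Cpr49Ab, a cuticle protein gene outside the list and chosen after its values were seen, averaged 2466 ± 584.3 CPM and ranked as number 87 by CPM.

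**Figure D3:**
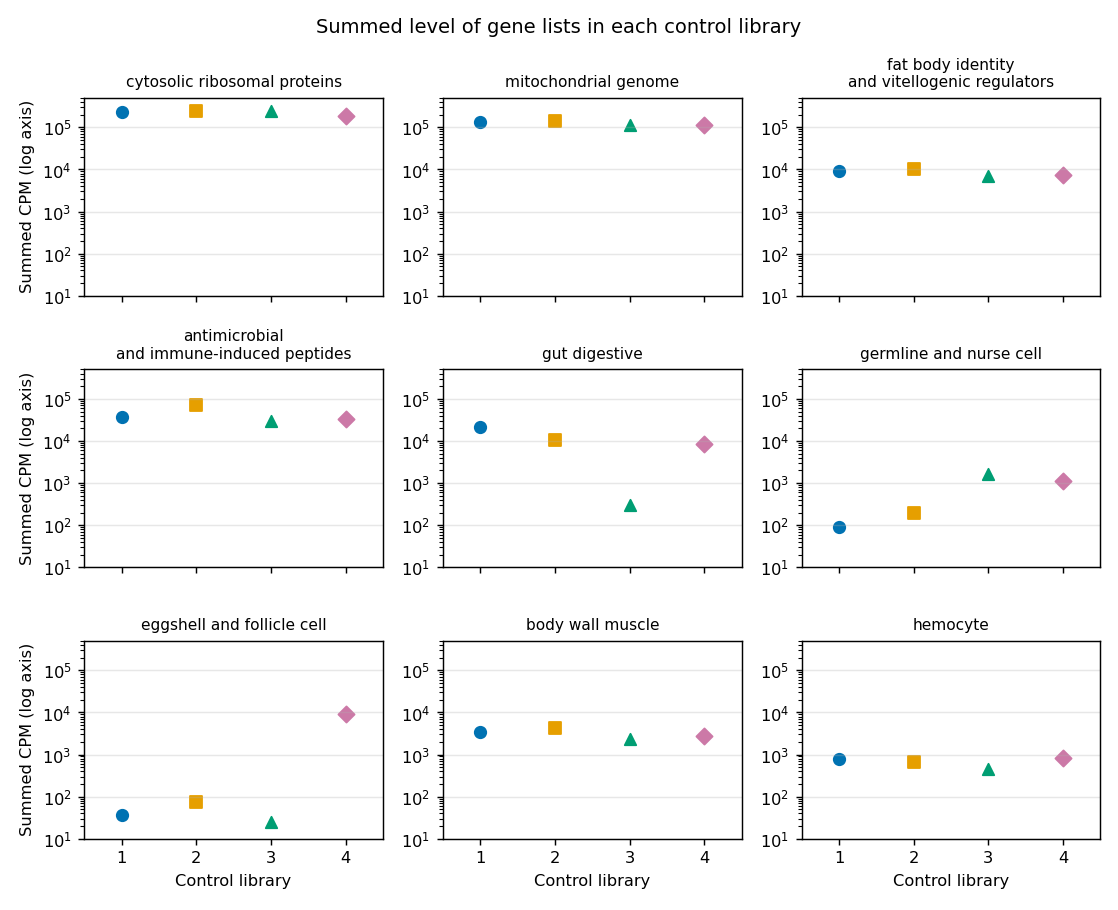
Summed CPM (log axis) of 9 gene lists in control libraries 1 to 4, 1 point for each library. Ribosomal, mitochondrial and fat body sums stay within 1.5-fold, and muscle and hemocyte sums span 1.87-fold and 1.84-fold; the gut sum is 295.5 in control 3 and 21900 in control 1, the germline sum is highest in control 3, the eggshell sum reaches 9082 in control 4, and the immune sum is highest in control 2.

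Immune peptide genes held 4.198 ± 1.49% of the counts (SD, n = 4). PGRP-SC2, an amidase that degrades bacterial peptidoglycan, had 11740, 9842, 7649 and 6626 CPM in controls 1 to 4. IM3 (BomS3), 1 of the Bomanin peptides induced by Toll signalling, had 5139, 11190, 4455 and 4848 CPM, and its paralog IM1 (BomS1) had 2282, 9048, 2044 and 3469 CPM. Drs, the antifungal peptide Drosomycin, had 1825, 6368, 2116 and 2671 CPM. Control 2 was therefore the highest library for IM3, IM1 and Drs, and control 1 for PGRP-SC2. Per unit of length IM2 (BomS2), IM1 and Drs stood at 12450, 11660 and 8385 CPM per kb, among the 20 highest genes of the transcriptome on that scale.

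Within the immune list 10 of 31 genes (32.3%) were variable, against 11.3% of all genes tested. When control 2 was left out 3 of 31 were variable, against 8.6% of all genes tested. When control 3 was left out 6 of 30 were, against 6.8%. IM23 (BomBc1), which codes for a bicipital Bomanin, had 566, 3916, 533.5 and 1130 CPM in controls 1 to 4. Mtk, the antifungal peptide Metchnikowin, had 110.5, 598, 151.1 and 281.4 CPM. IM1, IM2, IM3 and IM23 lie within a short stretch of arm 2R, from IM23 (18382704 to 18383235) through IM1 (18383949 to 18384378) and IM2 (18386602 to 18387030) to IM3 (18387895 to 18388734). All 4 were highest in control 2. The antibacterial peptide genes AttA and Dpt, targets of the Imd pathway, were far lower per unit of length, at 31.1 and 7.33 CPM per kb on average. AttA had 14.7, 64.2, 5.27 and 14.2 CPM in controls 1 to 4.

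Def, the Defensin gene, did not follow that order, with 147.4, 24.4, 5.27 and 58.0 CPM in controls 1 to 4. Its highest library was control 1 and its lowest control 3, the same extremes as the digestive enzymes below, and a part of gut RNA in its level was not tested. The Turandot stress peptides, secreted in response to JAK-STAT signalling, were also abundant. TotA had 1706, 2006, 989.2 and 1402 CPM, TotC averaged 1212 ± 412.4 CPM (SD, n = 4), and the sum over their list of stress peptides and JAK-STAT genes spanned 2.21-fold, with 0 of 8 genes variable.

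Variable genes were found at all levels but were less frequent among abundant genes. Of genes at a mean of 5 to 20 CPM 15.9% were variable (439 of 2756), and of genes at 1000 CPM or more 4.42% were (8 of 181). Together, the variable genes held 4.92, 4.32, 3.04 and 6.43% of the counts in controls 1 to 4. With the lowest library set to at least 3 counts, 64 genes spanned 100-fold or more. At the other extreme, 817 genes (14.04%) stayed within 1.5-fold and held 36.2% of the counts.

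Control 4 was the highest library for 44.2% of the variable genes, control 3 for 32.3%, control 1 for 15.6% and control 2 for 7.89%. This split depended on the scaling. On unscaled CPM, 64.1, 24.8, 8.31 and 2.77% of 975 variable genes were highest in controls 4, 3, 1 and 2. With relative log expression factors 33.9, 36.1, 18.9 and 11.0% of 598 were. Relative to the TMM-scaled values, unscaled CPM moved all genes of a library equally, by -0.15, -0.16, 0.03 and 0.28 (log2) in controls 1 to 4.

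**Figure D4:**
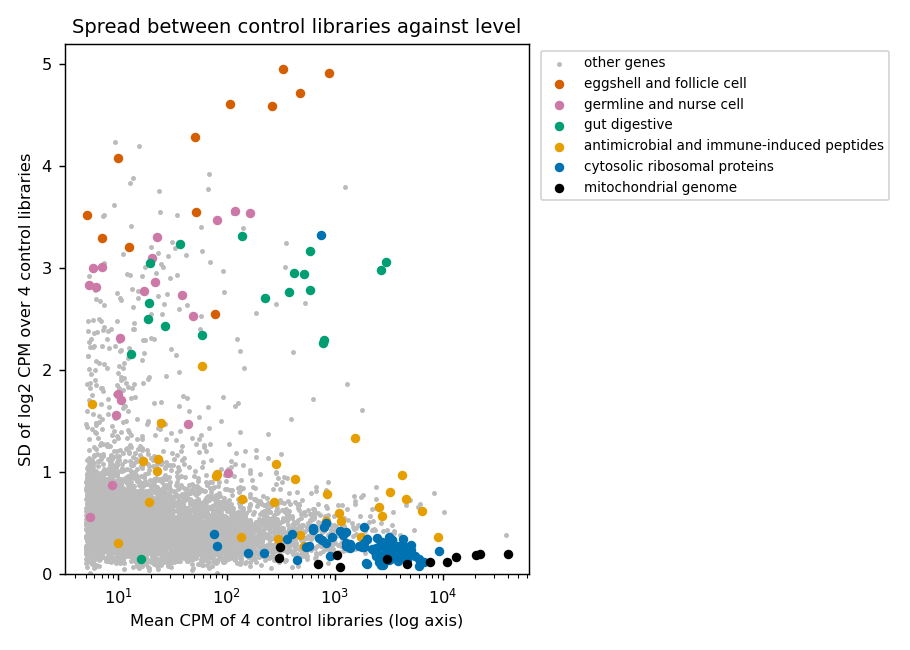
SD of log2 CPM over the 4 control libraries against mean CPM (log axis) for the 5818 genes at a mean of 5 CPM or more, 1 point for each gene, with 6 gene lists in colour. Mitochondrial and ribosomal protein genes lie at the bottom right with small SDs, apart from RpS5b; eggshell, germline and gut genes lie between SDs of about 2 and 5 in most cases, well above the median of 0.467.

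Digestive enzymes of the gut lumen differed widely between the libraries. The trypsin betaTry had 6675, 2997, 56.6 and 2291 CPM in controls 1 to 4, and alphaTry had 5919, 2653, 56.3 and 2000 CPM. Control 1 was the highest library for both and control 3 the lowest by more than 30-fold. The serine protease Jon25Bi had 1458, 386, 11.5 and 206 CPM. Amy-p and Amy-d, the amylase genes, averaged 792 and 773.9 CPM and were lowest in control 3 at 43.1 and 44.0 CPM. The amylases are near-identical copies of each other, and the trypsins lie in a cluster of related genes on arm 2R, so the division of reads between copies is uncertain.

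The summed gut list had 21900, 10730, 295.5 and 8366 CPM in controls 1 to 4, equal on average to 0.995 ± 0.793% of all counts (SD, n = 4). Of 19 gut genes at 5 CPM or more 18 were variable, against 11.3% of all genes tested. Without control 3 the number was 8 of 19, against 6.8% of all genes tested. The single gut gene below the limit was the lysozyme LysX, at 14.1, 15.7, 17.6 and 17.4 CPM. Besides list members, the abundant gene lcs had 3050, 760.7, 141.3 and 1281 CPM, and CG1678 (whe) had 3945, 1241, 274.6 and 1750 CPM, in both cases with control 1 highest and control 3 lowest. The maltase Mal-A6 had 20.98, 4.96, 0.0282 and 25.6 CPM, and CG43112 had 18.8, 14.8, 0.0282 and 21.3 CPM, so both fell below the detection limit in control 3. Altogether 91 variable genes were highest in control 1 and lowest in control 3, and 15 of them belonged to the gut list.

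Ovarian germline transcripts formed a second axis. The oocyte thioredoxin gene dhd had 9.06, 183.3, 3229 and 1553 CPM in controls 1 to 4 and was the most variable of the 200 genes with the most counts. Controls 3 and 4 were far above controls 1 and 2. nos, the posterior determinant Nanos, had 0.833, 13.2, 253.7 and 58.9 CPM, and osk, which organizes the germ plasm, had 1.45, 6.32, 46.3 and 99.5 CPM. gnu, a regulator of the first embryonic divisions, had 1.12, 27.5, 284.3 and 165 CPM. pgc, a repressor of transcription in germ cells, had 1.77, 24.9, 419.1 and 218.3 CPM.

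For dhd, nos, gnu and pgc the order of the libraries was control 3, control 4, control 2 and control 1, whereas osk was highest in control 4. Of the 20 variable germline genes, 11 were highest in control 4 and 9 in control 3. The summed germline list had 92.0, 194.9, 1681 and 1125 CPM in controls 1 to 4. Of 21 germline genes at 5 CPM or more 20 were variable, against 11.3% of all genes tested. Many of them reached 5 CPM only through controls 3 and 4: without both libraries 5 genes did, and 3 of these were variable, against 1.1% of all genes tested. The genes stet, mtrm, CG14545, CG9926 and CG14036, outside the list, shared the order of dhd. They were named for their large folds, so a wide range was fixed by that choice. For example mtrm, an inhibitor of Polo kinase in meiosis, had 0.181, 4.19, 61.0 and 31.02 CPM and reached a mean of 5 CPM only through controls 3 and 4. Altogether 197 variable genes were highest in control 3 and lowest in control 1, 9 of them from the germline list.

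RpS5b, the paralog of RpS5a that is known from the ovary, followed the same pattern with 10.04, 309.6, 1344 and 1350 CPM in controls 1 to 4, and was the single variable cytosolic ribosomal protein gene. RpS5a, chosen after its values were seen, had 3963, 3834, 3284 and 2383 CPM. Per unit of length RpS5a averaged 2429 ± 518.2 CPM per kb and RpS5b 792.1 ± 732 CPM per kb (SD, n = 4). The small heat shock genes Hsp26 (20, 21, 231.3 and 99.2 CPM) and Hsp27 (4.93, 5.69, 31.1 and 33.9 CPM) were also higher in controls 3 and 4. They account for 2 of the 4 variable genes among 13 heat shock and chaperone genes (30.8%), against 11.3% of all genes tested. The other 2 were stv and Hsp68, both highest in control 4, and 2 of 12 were variable without control 4, against 6.9% of all genes tested. On unscaled CPM 7 of 13 were variable, with relative log expression factors 3 of 13, and at a mean of 20 CPM or more 1 of 10. Without controls 3 and 4, 0 of 11 were. The shares over all genes tested were then 16.6, 10.3, 7.2 and 1.1%. The part of ovarian RNA in the heat shock levels was not tested.

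Chorion genes, expressed by follicle cells late in egg formation, were high in a single library. Cp15 had 4.38, 2.03, 8.87 and 3549 CPM in controls 1 to 4, and its 1748-fold range was the largest of any gene tested. Cp38 had 5.73, 2.66, 1.60 and 1888 CPM. Cp36 had 2.97, 1.20, 0.845 and 1340 CPM. Control 4 stood alone for all 3, and controls 1, 2 and 3 had at most 8.87 CPM. Cp15, Cp16, Cp18 and Cp19 lie together on arm 3L between 8726791 (the start of Cp18) and 8732599 (the end of Cp16), and Cp36 (8479319 to 8480523) and Cp38 (8481837 to 8483311) lie together on the X chromosome.

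The summed eggshell list had 37.2, 74.0, 24.9 and 9082 CPM in controls 1 to 4. All 12 eggshell genes at 5 CPM or more were variable, against 11.3% of all genes tested. Without control 4, when 6.9% of all genes tested were variable, only 2 eggshell genes reached that level and 1 of them was variable. That gene was the vitelline membrane gene Vm26Aa, made earlier in egg formation than the chorion, which had 0.435, 41.0, 0.366 and 8.10 CPM and so was highest in control 2. The yellow family gene yellow-g had 12.03, 8.98, 6.03 and 287.7 CPM. The list member CG13114 and, outside the list, Obp19c, CG32642 and CG14834 had 39.7, 61.3, 36.6 and 35.1 CPM in control 4. Each had less than 1 CPM in each of the other 3 libraries. They reached a mean of 5 CPM only through control 4 and were named for their large folds, so their likeness to the chorion genes follows from that choice. Control 3, the highest library for the germline sum, was within 9 CPM for each of Cp15, Cp36 and Cp38.

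Genes of the spermatheca, the sperm storage organ of the female, also differed between libraries. Send1, a secreted serine protease, had 71.5, 33.4, 17.4 and 125 CPM in controls 1 to 4, and Send2 had 0.217, 1.36, 0.338 and 50.3 CPM. Control 4 was the highest for both. Of 6 genes of that list at 5 CPM or more 5 were variable, against 11.3% of all genes tested. Send2 reached a mean of 5 CPM only through control 4. Without control 3, 1 of 6 genes was variable, without control 4, 3 of 4 were, and without both, 0 of 5 were. The shares over all genes tested were then 6.8, 6.9 and 1.1%. The list member that was not variable, CG18067 (Bbd), is also in the immune list and was highest in control 2 at 4626 CPM.

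Gene length moved with the library as well. Among the 559 tested genes longer than 6 kb, the median deviation from the mean of the 4 libraries was 0.12, -0.52, -0.29 and 0.71 (log2) in controls 1 to 4. Among the 1945 genes of 1 to 2 kb it was -0.11, 0.20, 0.17 and -0.27. Long genes were thus high in control 4 and low in controls 2 and 3, and genes of 1 to 2 kb showed the opposite order. The 193 variable genes that were highest in control 4 and lowest in control 2 had a median length of 5047 bases, compared with 1822 bases for all genes tested. Once the median deviation of each length class had been removed from each library, a step added after seeing the data, 48 of these 193 genes still varied at least 4-fold.

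With that step 170 of the 197 genes that were highest in control 3 and lowest in control 1 still varied at least 4-fold, as did all 91 genes that were highest in control 1 and lowest in control 3. Their median lengths were 1438 and 933 bases. The eggshell, immune and gut counts were 12 of 12, 10 of 31 and 18 of 19 with the step and without it, and the germline count was 19 of 21 with it. Of yolk and lipid carrier genes 2 of 9 became variable. Of all genes tested 8.9% were variable with the step, against 11.0% on the same log2 range without it. What set the length differences was not tested.

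**Figure D5:**
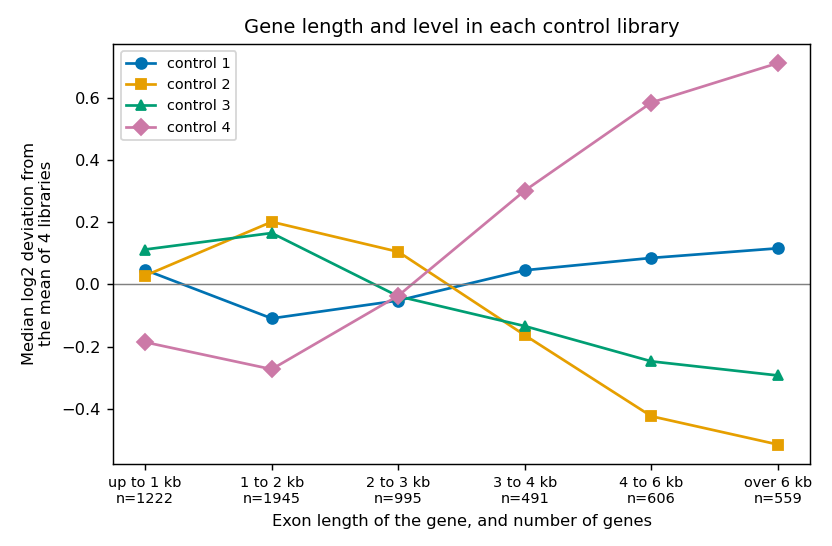
Median log2 deviation from the mean of the 4 control libraries, by class of exon length, for genes at a mean of 5 CPM or more; each line is 1 library, and the number of genes stands under each class. Control 4 rises to 0.71 and control 2 drops to -0.52 for genes longer than 6 kb, and the 4 lines lie within about 0.2 of 0 between 2 and 3 kb.

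The genes with the smallest spread on TMM-scaled values served basic cellular functions. Fis1, a mitochondrial fission factor, had 264, 250.1, 274.2 and 251.5 CPM in controls 1 to 4, with an SD of log2 CPM of 0.063, the smallest of all genes at a mean of 100 CPM or more. mt:ND2, a subunit of complex I, averaged 1132 ± 55.8 CPM (SD, n = 4). Mlc-c, a cytoplasmic myosin light chain, averaged 401 ± 19.9 CPM, and chic, the actin-binding protein profilin, averaged 164 ± 9.12 CPM. The ribosomal protein genes RpLP2, RpL38 and RpL30, the small GTPase gene Arf102F (Arf4), Vps60, which acts in endosomal sorting, and l(2)k12914 (Dad1), a subunit of the oligosaccharyltransferase, completed the 10 most uniform genes. The set depended on the scaling: 6 of the 10 were also among the 10 most uniform with relative log expression factors, and 0 were on unscaled CPM, where Fis1 had 237.8, 224.5, 280.1 and 304.3.

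Genes often used to normalize quantitative PCR, a list added after the files were seen, had a median range of 1.74-fold, against 2.05-fold over all genes tested. RpL13A, given above, had a 1.21-fold range. RpL32 had 1331, 1501, 1364 and 931.8 CPM in controls 1 to 4, a 1.61-fold range. Act5C, a cytoplasmic actin, had 196.2, 340.8, 237.8 and 396.6 CPM, a 2.02-fold range. alphaTub84B, the general alpha-tubulin, had 210, 430.2, 435.4 and 270.6 CPM, a 2.07-fold range. None of the 11 genes of that list at 5 CPM or more was variable.

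Noncoding genes contributed little in number and more in single transcripts. Of 2764 noncoding genes 2472 were under 1 CPM, and 82 reached 5 CPM. CR34335, a long noncoding RNA of 249 bases on the X chromosome, averaged 3551 ± 386 CPM (SD, n = 4), and at 14260 CPM per kb it ranked eighth of all genes on that scale. CR40469 averaged 555.5 ± 57.8 CPM. Among the noncoding genes 8 of 82 (9.76%) were variable, close to the share of all genes. One of them was CR44404 (IBIN), an infection-induced RNA, with 3.84, 152.8, 7.32 and 69.8 CPM in controls 1 to 4, which was highest in control 2, as IM1, IM3 and Drs were.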

How the data were processed

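Per the submitters' processing notes, the tools were STAR 2.5.2b, Trimmomatic 0.36, Subread 1.5.2 and its featureCounts, and the build was BDGP6. How multi-mapping reads and strand were handled, and which annotation was used, is not given in the sources used here. Per the file headers, the deposited tables hold whole-number counts for each gene with its exon length, and coordinates are those of the deposited tables. No molecular identifiers are mentioned, so intervals and detection limits cover counting error only. Totals per library ranged from 27946556 to 34750635.

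From the deposited counts, CPM were computed with TMM factors over the 4 control libraries (edgeR 4.0.16, R 4.3.3, Python 3.11.15), and CPM per kb from the deposited length. Shares are percentages of unscaled totals. The common dispersion came from edgeR on genes kept by filterByExpr, with DESeq2 1.42.0 as an alternative. Spread was described for genes with a mean of at least 5 CPM, as the fold between the highest and lowest library (lowest set to at least 3 counts), with the SD of log2 CPM taken at a prior count of 2. There is 1 group, so no group test was made and no p-value is given. The code for the spread was checked on simulated data.

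Named genes were the 20 with the highest CPM, the 15 with the highest CPM per kb at 200 bases or more, the 20 largest folds, the 10 largest folds among the 200 most abundant genes, the 10 smallest SDs at 100 CPM or more, and from each of 26 gene lists up to 4 by level and 2 by fold. AkhR, InR, RpS5a, Cpr49Ab, the qPCR list, and the list members Fer2LCH, CCHa2, Obp99b, Obp99c, Hnf4, Dbi, CG3523, Mtk, AttA, Dpt, Jon25Bi, LysX, osk, stv, Hsp68, Vm26Aa, yellow-g, CR44404 and per were chosen after their values were seen. The members and lists were chosen with earlier results of these data known. Symbols in parentheses are current names; 17226 of 17411 symbols matched RefSeq gene names. Alternatives changed scaling, the filter on low values, the fold, gene length and the libraries included. One gene among those with the most counts is not reported here. The RNAi libraries are not analysed here.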

Additional observations from a re-analysis of the deposited data

Results flagged for a closer look

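In 5 gene lists and 20 named genes, 1 of the 4 libraries stood apart, because its gap to the nearest other library took up more of the whole range of the 4 than Dixon's 95% critical value. Chance alone flags about 1 in 20 groups, and 5.12% of all tested genes met the same limit, so the number of genes is no finding in itself. Among list sums, the gap took 0.9946 of the range for eggshell genes (control 4 highest), 0.9195 for spermatheca genes (which include the abundant CG18067, highest in control 2), 0.9074 for glycogen, trehalose and glycolysis genes (control 4 lowest), 0.8765 for qPCR reference genes (control 4 lowest on TMM-scaled values, control 1 in unscaled share) and 0.8502 for immune peptide genes (control 2 highest).

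Control 4 stood above the rest for Cp15 (0.9981), Cp16 (0.9984), Cp18 (0.9986), Cp19 (0.9987), Cp36 (0.9984), Cp38 (0.9978), CG13114 (0.9995), CG32642 (0.9931), CG14834 (0.9803), Obp19c (0.9979), Send2 (0.9771), yellow-g (0.9787) and GstD2 (0.8337). Control 2 stood above the rest for AttA (0.8397), IM2 (0.8982), IM3 (0.8983) and CG18067 (0.9113). Control 1 stood above the rest for CG2444 (0.9104), and control 3 for Obp99a (0.8685) and gus (0.8514), a germline list member at 46.7, 65.2, 226.2 and 73.3 CPM in controls 1 to 4. The causes were not tested.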

How the results depend on the processing

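The number of genes at 1 CPM or more in every control library was 7388 and became 4699 at a limit of 5 CPM. The share of the 10 leading genes, 18.03% of counts, became 21.4% on CPM per kb and 12% without mitochondrial genes. The 659 variable genes became 1463 at a mean of 1 CPM or more, 220 at 20 CPM or more, 2158 with no filter and 3079 at a 2-fold limit. Leaving out 1 library gave 377 to 580 variable genes, with the lowest values without control 4 (377) and control 3 (396), and leaving out both, an alternative added after seeing the data, gave 57. Unscaled CPM gave 975 and relative log expression factors 598. A range of log2 CPM of at least 2, a different measure, gave 642 without length-centring and 516 with it. Of these 516, 448 were among the 659. The common biological coefficient of variation, 0.455, lay between 0.423 and 0.471 without single libraries, at 0.450 with relative log expression factors, at 0.512 with no filter and at 0.336 with DESeq2. Of 1014 values for 169 named genes, 9 moved by more than the replicate SD, each when a library was left out. The causes were not tested beyond what each alternative changes by construction. No paired analysis was possible because only 1 group is described. The 4 libraries bound the precision of every SD, and counts do not separate PCR copies from molecules.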

Other observations

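Clock and nutrient-sensing genes are not described above. The photoreceptor gene cry led the clock list at 138.7, 215.7, 139.9 and 81.3 CPM in controls 1 to 4, and per, a core repressor of the clock, averaged 14.9 ± 5.07 CPM (SD, n = 4). None of 9 clock genes at 5 CPM or more was variable. AkhR, the receptor for the lipid-mobilizing adipokinetic hormone, averaged 21.1 ± 9.52 CPM, and InR, the insulin receptor, averaged 18.6 ± 5.61 CPM, both chosen after their values were seen.

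Counts were unequally spread over chromosome arms. Arm 2R held 23.5 ± 0.875% of the counts (SD, n = 4), 3L 16.7%, 3R 16.6%, X 15.96%, 2L 13.8% and chromosome 4 0.759 ± 0.0845%. Of the 63 tested genes on chromosome 4, 1 was variable (1.59%), compared with 10.5 to 12.7% on the other arms. Transcripts of roX1, a noncoding RNA of the male dosage compensation complex, averaged 0.392 ± 0.102 CPM.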
